A study of Strongylocentrotus purpuratus with 4 samples.

Results

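Chromosome structure and segregation genes build, hold together, attach and separate the chromosomes of a dividing cell. The 5 genes described here were taken from the study's supplementary list of division genes by the role of their products: LOC574836 (SMC2), LOC580943 (SMC1A), LOC589199 (centromere protein C), LOC576796 (NUSAP1-A) and LOC578080 (rac GTPase-activating protein 1, RacGAP1). They are 5 of the 32262 genes counted in every library, and each had 1 row in the count tables and 1 entry in the gene table of RefSeq. The files give the LOC identifiers only, and the product names come from that supplementary list. The study drew the list from pigment cells of its uninjected libraries as genes higher in the dividing pigment cells, so a rise of the members with other division genes there is not independent of that choice. The libraries of injected embryos were not used for it.

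As general background, condensin, with SMC2 and SMC4 at its core, folds chromosomes into compact rods, and cohesin, with SMC1A at its core, holds sister chromatids together from DNA replication until they part. Centromere protein C links centromeric chromatin to the kinetochore, where spindle microtubules attach. NUSAP1 binds spindle microtubules near the chromosomes, and RacGAP1 is a subunit of centralspindlin, the complex at the spindle midzone that positions the cleavage furrow. These roles are known from human cells and other animals. In the sea urchin larva, pigment cells are immune-type cells of the non-skeletogenic mesoderm that settle in the aboral ectoderm, and skeletogenic cells are known not to divide after they enter the blastocoel.

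Strongylocentrotus purpuratus embryos gave 4 droplet libraries, 1 for each condition. The uninjected 48 hpf gastrulae and the uninjected 72 hpf larvae were dissociated so as to enrich ectoderm with its pigment cells, and each was sequenced in its own lane. The control MO and gcm MO libraries came from whole 48 hpf gastrulae without that enrichment and shared a lane. Zygotes for them received 0.5 mM of a morpholino antisense oligonucleotide (MO), either an irrelevant one designed for another echinoderm or one that blocks translation of gcm, the transcription factor at the head of pigment cell specification. The study describes fertilization in 3-amino-triazol for its cultures in general, and injection was in it as well. Injected embryos were pooled after selection for the expected phenotype. Because the gcm MO blocks translation, the gcm transcript is no check of the knockdown. The study describes gcm MO cells as sensitive to dissociation. With 1 library per condition there is no replicate and no test, every interval is a 95% interval that covers counting error only, and stage, lane and library cannot be told apart.

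Transcript molecules were counted by their unique molecular identifiers (UMIs), and a level (CPM) is the summed UMIs of a gene in a group of cells for every 1000000 UMIs of all genes in those cells. Because transcripts were captured at their 3′ ends, levels were not compared between genes. Of the deposited cells, those with 400 to 2500 genes were kept, which left 5170 (uninjected 48 hpf), 6666 (uninjected 72 hpf), 3323 (control MO) and 539 cells (gcm MO), with median depths of 3063.5, 1487, 2684 and 3831 UMIs. The 4 libraries shared between 1 and 16 cell barcodes per pair.

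Cells were placed in classes by summed marker UMIs (at least 3, and at least 0.2% of the UMIs of the cell): pigment (LOC588806, pks1; LOC592500, sult1c2; LOC588371, fmo5-1), gut (Endo16, GATAe, blimp1/krox, FoxA) and skeletogenic (SM50, SM37, SM29, SM30A, PM27, MSP130, P16, Alx1). High-ARS cells had at least 1% of their UMIs from the arylsulfatase gene ARS, a marker of aboral ectoderm. Cells of none were called other. Pigment cells numbered 451, 695, 198 and 5 in the order of libraries above, gut cells 385, 36, 370 and 79, skeletogenic cells 23, 16, 57 and 2, high-ARS cells 2122, 2283, 1242 and 189, and other cells 2136, 3599, 1443 and 263. The 104 cells in more than 1 class were left out of all classes. The pigment label was checked with gcm, which was not used for it and stood at 479, 397 and 473 CPM in pigment cells of the first 3 libraries against 18.8, 20.2 and 7.0 CPM in other cells. SPEC1, an aboral ectoderm gene, stood at 7112, 3879, 12523 and 9258 CPM in high-ARS cells against 682, 946, 2343 and 2413 CPM in other cells. Skeletogenic cells of the control MO library held SM30A at 72183 CPM. Beside it stood SM50 at 3018 CPM and the regulator Alx1 at 850 CPM, against 6.75 and 2.25 CPM in other cells. All of these genes were used to define the class, so their levels are no check of its label. The collagen gene COLP1alpha, which was not used for the class, went against the label at 48 hpf, with 250 CPM in the uninjected and 273 CPM in the control MO library against 743 and 609 CPM in other cells, but not at 72 hpf (3637 against 187 CPM). Classes with fewer than 50 cells were not compared, which left out pigment cells of the gcm MO library, gut cells at 72 hpf and skeletogenic cells of every library but the control MO.

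All 5 members were detected in every library. Over the 4 libraries they had 1976 UMIs for SMC2, 12922 for SMC1A, 5100 for centromere protein C, 4829 for NUSAP1-A and 2347 for RacGAP1, which placed them between rank 434 (SMC1A) and rank 2680 (SMC2) of the 32262 genes by UMIs. Because SMC1A gave 48.0% of the members' UMIs at 48 hpf and 44.0% with the control MO, a sum over the members follows SMC1A more than any other gene. Over all cells the sum reached 719 CPM (uninjected 48 hpf), 535 CPM (uninjected 72 hpf), 737 CPM (control MO) and 793 CPM (gcm MO).

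SMC2, the condensin core subunit, was highest in pigment cells at 48 hpf, at 108 CPM (interval 87.5 to 132). The other classes of that library stood at 81.7 CPM (74.3 to 89.7) in other cells, 67.2 CPM (54.2 to 82.4) in gut cells and 23.8 CPM (20.4 to 27.6) in high-ARS cells. The interval of pigment cells overlapped that of other cells, although their ratio of 1.32 had an interval above 1 (1.05 to 1.65). High-ARS cells lay below all of the other classes. In the 72 hpf library the order of the first classes was the reverse, with 81.2 CPM (74.6 to 88.2) in other cells, 38.6 CPM (26.7 to 53.9) in pigment cells and 19.5 CPM (16.2 to 23.2) in high-ARS cells, and no intervals overlapped. The control MO library gave 48.0 CPM (36.8 to 61.5) in gut, 45.8 CPM (39.4 to 52.9) in other, 32.6 CPM (17.8 to 54.7) in pigment and 16.2 CPM (12.2 to 21.1) in high-ARS cells. High-ARS cells were set apart from gut and other cells there, as were the skeletogenic cells, which are few and held no SMC2 UMI. The intervals of pigment and high-ARS cells overlapped, although their ratio of 2.01 had an interval above 1 (1.03 to 3.66). With the gcm MO, SMC2 was at 118 CPM (80.7 to 166) in gut, 90.8 CPM (70.8 to 115) in other and 18.4 CPM (10.1 to 30.9) in high-ARS cells, again with high-ARS cells apart.

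SMC1A, the cohesin core subunit, was the member with most UMIs and the narrowest intervals. At 48 hpf it stood at 654 CPM (602 to 709) in pigment cells, 471 CPM (435 to 508) in gut cells, 470 CPM (452 to 489) in other cells and 195 CPM (185 to 206) in high-ARS cells. Pigment cells were above every other class, and gut and other cells could not be ordered. At 72 hpf, 367 CPM (352 to 381) in other cells exceeded 301 CPM (266 to 339) in pigment cells, and high-ARS cells had 157 CPM (147 to 166). The control MO library held 441 CPM (406 to 479) in gut, 430 CPM (409 to 450) in other, 312 CPM (262 to 370) in pigment and 165 CPM (152 to 179) in high-ARS cells. Pigment cells lay below gut and other cells there without overlap. With the gcm MO the levels were 667 CPM (573 to 772) in gut, 518 CPM (468 to 571) in other and 164 CPM (137 to 196) in high-ARS cells.

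Centromere protein C, the inner kinetochore protein, did not separate pigment, gut and other cells at 48 hpf, which stood at 218 CPM (189 to 251), 192 CPM (170 to 217) and 218 CPM (206 to 231). High-ARS cells had 67.1 CPM (61.3 to 73.3). By 72 hpf other cells had 170 CPM (160 to 180), pigment cells 95.4 CPM (76.1 to 118) and high-ARS cells 45.6 CPM (40.5 to 51.1), all without overlap. In the control MO library, other cells at 170 CPM (157 to 183) and gut cells at 166 CPM (144 to 189) overlapped, pigment cells lay below other cells at 107 CPM (78.5 to 143) and high-ARS cells below these at 41.9 CPM (35.3 to 49.4). Gut cells of the gcm MO library had 247 CPM (191 to 314), other cells 219 CPM (187 to 255) and high-ARS cells 36.8 CPM (24.5 to 53.2).

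NUSAP1-A, the spindle protein, was the only member whose pigment cells lay below both other and gut cells at 48 hpf. Other cells stood at 197 CPM (185 to 209), gut cells at 185 CPM (163 to 209), pigment cells at 124 CPM (102 to 149) and high-ARS cells at 69.1 CPM (63.2 to 75.4). At 72 hpf pigment cells at 94.2 CPM (75.1 to 117) overlapped other cells at 106 CPM (98.0 to 113), with high-ARS cells at 45.4 CPM (40.4 to 50.9). In the control MO library pigment cells, at 74.6 CPM (51.0 to 105), overlapped high-ARS cells at 84.4 CPM (74.9 to 94.8), far below gut cells at 190 CPM (167 to 216) and other cells at 230 CPM (215 to 245). Over the 3 libraries with at least 50 pigment cells, this was the 1 member and library in which pigment cells were not above high-ARS cells by value. The gcm MO library gave 184 CPM (137 to 243) in gut, 183 CPM (154 to 216) in other and 46.0 CPM (32.1 to 64.0) in high-ARS cells.

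RacGAP1, the cytokinesis protein, was highest in pigment cells at 48 hpf, at 117 CPM (95.6 to 142) against 76.4 CPM (69.3 to 84.1) in other, 69.4 CPM (56.2 to 84.9) in gut and 19.8 CPM (16.7 to 23.3) in high-ARS cells. At 72 hpf pigment cells stood at 30.7 CPM (20.2 to 44.6), below other cells at 54.8 CPM (49.4 to 60.6) and above high-ARS cells at 12.1 CPM (9.60 to 15.1). With the control MO, pigment, other and gut cells stood at 149 CPM (115 to 190), 142 CPM (131 to 154) and 134 CPM (115 to 155), all overlapping, and high-ARS cells at 37.8 CPM (31.5 to 44.9). With the gcm MO it was at 105 CPM (83.5 to 131) in other, 103 CPM (68.6 to 149) in gut and 21.0 CPM (12.0 to 34.2) in high-ARS cells. RacGAP1 was the only member for which pigment cells held the highest value in both 48 hpf libraries that had enough of them.

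**Figure D1:**
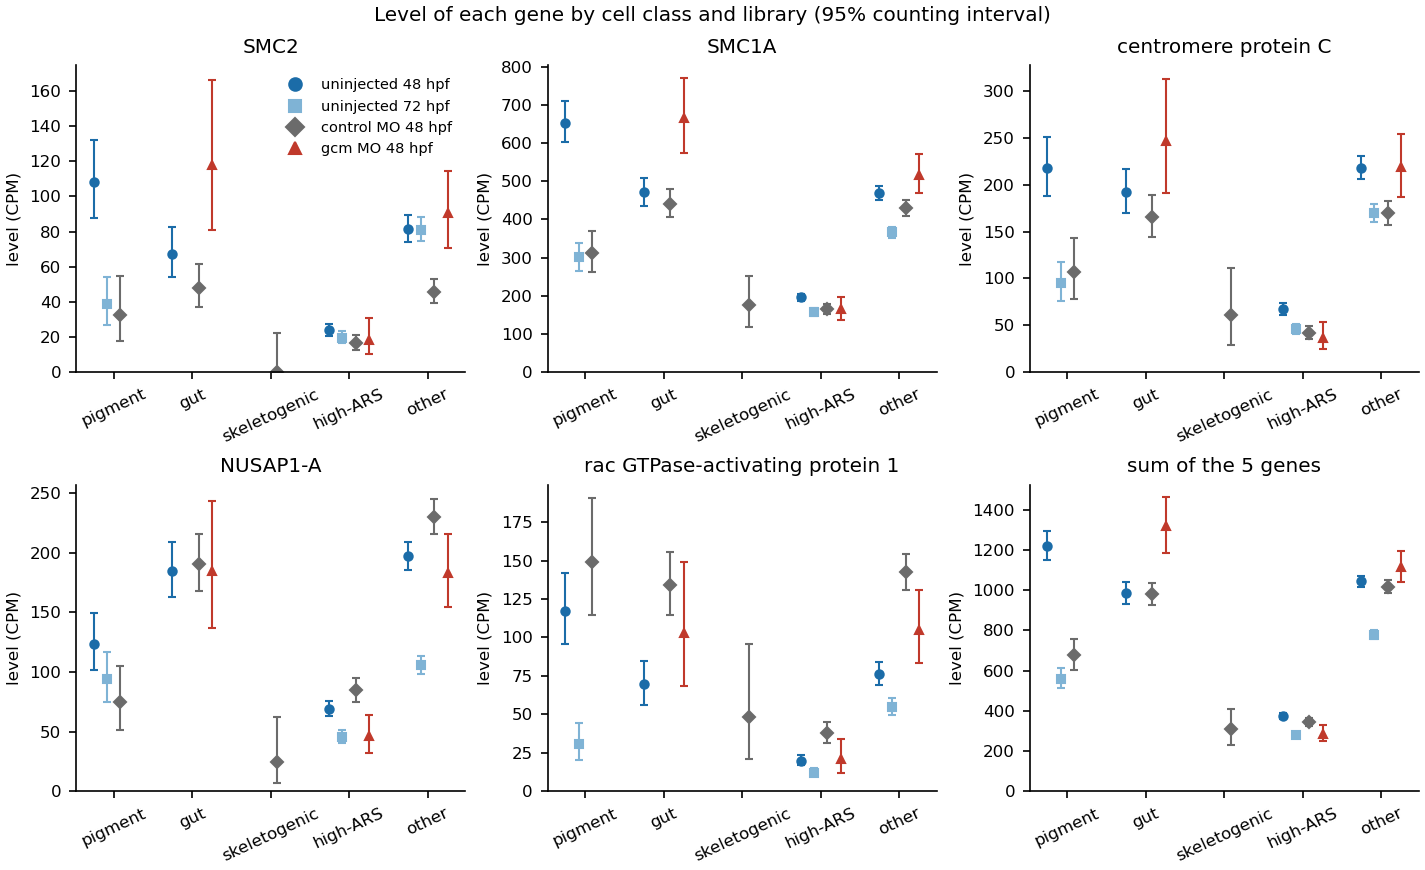
Level of each member (CPM of summed UMIs, vertical axis) by cell class and library, with exact Poisson 95% intervals as bars; groups with fewer than 50 cells are not drawn. Among pigment, gut, high-ARS and other cells, high-ARS cells are lowest in each library for all members except NUSAP1-A in the control MO library, where pigment cells (74.6 CPM) and high-ARS cells (84.4 CPM) overlap, and pigment cells at 48 hpf stand highest for SMC1A (654 CPM).

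High-ARS cells carried all 5 members at between 0.168 and 0.430 of the level in other cells. The ratio of the sum was 0.359 (0.343 to 0.376) and 0.359 (0.340 to 0.378) in the uninjected libraries of 48 and 72 hpf, 0.340 (0.318 to 0.363) in the control MO library and 0.257 (0.220 to 0.299) in the gcm MO library. A gene was counted as lower or higher when its ratio reached 1.5-fold with the whole interval on that side of 1. By this rule 5 of 5 members were lower in each library, where 44.6%, 53.2%, 43.3% and 35.4% of all genes tested were lower. The median ratio of the members was 0.307, 0.268, 0.355 and 0.203, against 0.709, 0.621, 0.723 and 0.866 over all genes tested. A large share of all genes was thus lower in these cells, although less so than the members by the median. Without the 50 most abundant genes in the denominator the ratio of the sum at 48 hpf was 0.423.

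Among members, the deepest reductions in high-ARS cells were those of centromere protein C and RacGAP1 in the gcm MO library, at 0.168 (0.108 to 0.252) and 0.200 (0.109 to 0.345). SMC1A had the highest ratio by value in 3 of the 4 libraries, at 0.415 at 48 hpf, 0.384 in control MO and 0.318 in gcm MO embryos. Its interval at 48 hpf, 0.389 to 0.443, touched that of NUSAP1-A (0.315 to 0.390). At 72 hpf NUSAP1-A (0.430) and SMC1A (0.427) were alike by value. The 7 other chromosome structure and segregation genes of the study's list were SMC4 and condensin-2 subunit H2 (condensin subunits), centromere protein F (outer kinetochore), TPX2 (spindle assembly), KRP170 (a kinesin of the sea urchin spindle), anillin (cleavage furrow) and DNA topoisomerase 2-alpha (which untangles DNA). In high-ARS cells 7 of 7 were lower in each library, for example SMC4, the partner of SMC2, at 0.264, 0.269, 0.268 and 0.161 of other cells.

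The high-ARS level was set beside that of skeletogenic cells. For this, the share of cells with any member UMI was taken after every cell was thinned to 500 UMIs. In the control MO library it was 14.6% (12.7 to 16.7) of high-ARS cells, with a median full depth of 2593 UMIs, and 14.0% (6.26 to 25.8) of the 57 skeletogenic cells, with a median of 2976 UMIs. The wide interval of the skeletogenic cells held the high-ARS share. Neither class was free of division transcripts by the division lists described below. Among the skeletogenic cells, 4 had mitotic UMIs alone and held 11 member UMIs, and 1 had replication UMIs alone. High-ARS cells were not alike among themselves. In the uninjected 48 hpf library the sum of the members was 211 CPM in the 1519 high-ARS cells with no division UMI. It was 1062 CPM in the 288 with at least 2. Other, gut and pigment cells of the control MO library had a member UMI in 35.1%, 33.5% and 25.3% of cells. High-ARS cells of the uninjected libraries had 15.4% at 48 hpf and 13.2% at 72 hpf, and those of the gcm MO library 14.3%, where other cells had 36.7%, 28.6% and 38.0%.

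The skeletogenic cells of the control MO library held 51 member UMIs in all. SMC1A stood at 176 CPM (118 to 253), centromere protein C at 60.7 CPM (29.1 to 112), RacGAP1 at 48.6 CPM (21.0 to 95.7) and NUSAP1-A at 24.3 CPM (6.62 to 62.2). No SMC2 UMI was found in these cells. That allows a level of up to 18.2 CPM by a floor of 3 counts and, at 500 UMIs per cell, up to 5.26% of cells with a UMI, against 45.8 CPM in other cells, at least 2.51-fold higher. All 5 members were lower in skeletogenic than in other cells, where 28.8% of all genes tested were, with ratios of 0.410 for SMC1A, 0.358 for centromere protein C, 0.341 for RacGAP1 and 0.106 for NUSAP1-A.

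Pigment cells at 48 hpf were mixed in their members. Against other cells, SMC1A stood at 1.39 (1.27 to 1.52), SMC2 at 1.32 (1.05 to 1.65), RacGAP1 at 1.53 (1.22 to 1.90), centromere protein C at 0.999 (0.854 to 1.16) and NUSAP1-A at 0.629 (0.512 to 0.766). By the 1.5-fold rule RacGAP1 was higher, as were 19.3% of all genes tested, and NUSAP1-A was lower, as were 38.4%. The sum was at 1.17 (1.10 to 1.25), and the median member ratio of 1.32 compares with 0.735 over all genes tested. The list of 7 was mixed in the same library, with condensin-2 subunit H2 higher at 1.57 and KRP170 and DNA topoisomerase 2-alpha lower at 0.332 and 0.623. Pigment cells had a median depth of 1704 UMIs there and other cells 2081 UMIs.

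In the 72 hpf library 3 of 5 members were lower in pigment than in other cells, where 29.5% of all genes tested were: SMC2 at 0.476 (0.326 to 0.672), RacGAP1 at 0.559 (0.364 to 0.827) and centromere protein C at 0.561 (0.444 to 0.700). SMC1A at 0.821 (0.721 to 0.932) and NUSAP1-A at 0.893 (0.703 to 1.12) did not reach the fold. Of the list of 7, condensin-2 subunit H2, SMC4 and TPX2 were lower there, at 0.542, 0.606 and 0.632. With the control MO, 2 of 5 were lower, where 39.0% of all genes were, NUSAP1-A at 0.325 (0.221 to 0.461) and centromere protein C at 0.632 (0.458 to 0.853). SMC1A was at 0.727 (0.605 to 0.867), SMC2 at 0.713 (0.382 to 1.23) and RacGAP1 at 1.05 (0.796 to 1.36). Of the list of 7, 6 were lower in that library, from KRP170 at 0.205 to SMC4 at 0.655, and condensin-2 subunit H2 stood at 1.10. NUSAP1-A was thus lower in the pigment cells of both 48 hpf libraries, by unequal amounts.

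**Figure D2:**
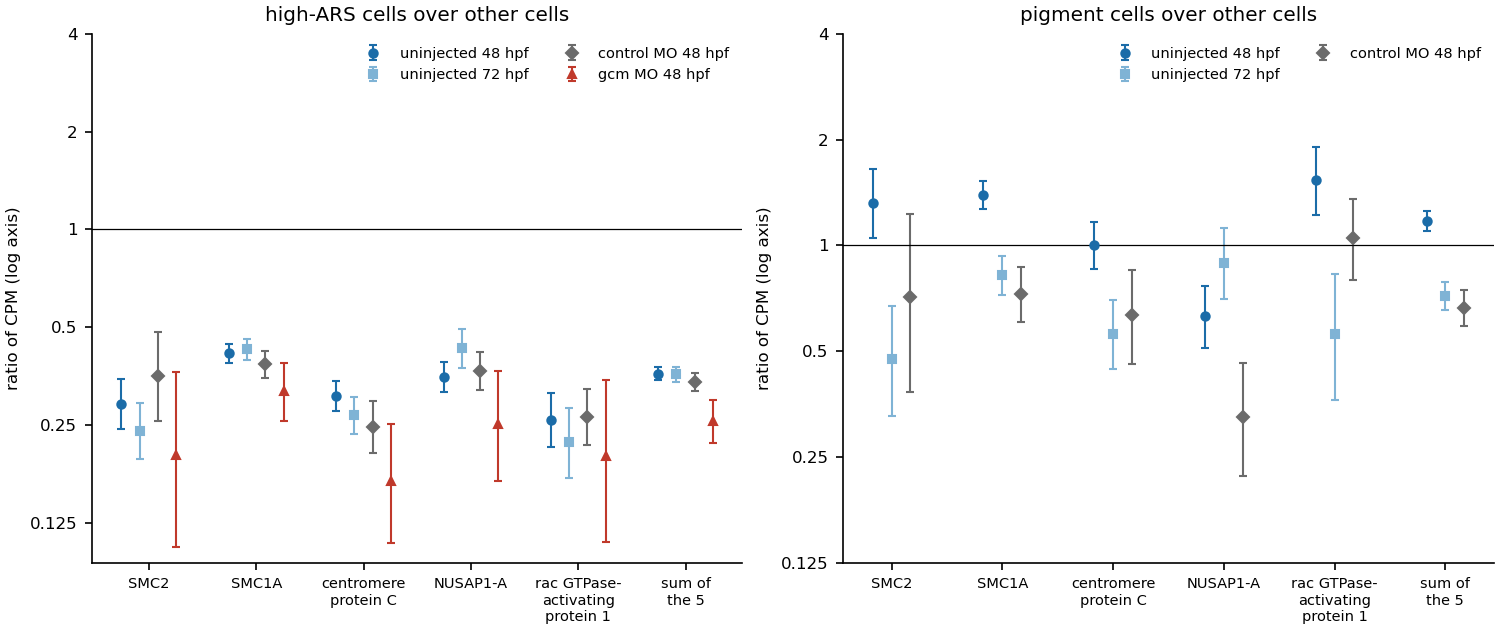
Ratio of the level in high-ARS cells (left) and in pigment cells (right) to that in other cells (log axis), for each member and the sum in each library, with exact 95% intervals. High-ARS ratios of all members lie between 0.168 and 0.430, while pigment ratios run from 0.325 (NUSAP1-A, control MO) to 1.53 (RacGAP1, 48 hpf).

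Gut cells were close to other cells at 48 hpf and with the control MO. The sum stood at 0.943 (0.888 to 1.00) at 48 hpf and 0.963 (0.904 to 1.03) with the control MO. Single members ranged from 0.823 (SMC2) to 1.00 (SMC1A) in the first and from 0.829 (NUSAP1-A) to 1.05 (SMC2) in the second. In the gcm MO library the sum in gut cells was 1.18 (1.04 to 1.34) times that in other cells.

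From 48 to 72 hpf the sum of the members over all cells was lower, at a ratio of 0.745 (0.723 to 0.767). By member the ratio was 0.937 (0.847 to 1.04) for SMC2, 0.771 (0.740 to 0.804) for SMC1A, 0.761 (0.713 to 0.813) for centromere protein C, 0.673 (0.600 to 0.754) for RacGAP1 and 0.603 (0.560 to 0.649) for NUSAP1-A. NUSAP1-A was the 1 member that reached the 1.5-fold rule, where 21.4% of all genes tested were lower, and the median of the members (0.761) compares with 0.953 over all genes. SMC2 was the 1 member whose interval held 1. None of the list of 7 reached the fold. SMC4, the partner of SMC2, stood at 1.17 and condensin-2 subunit H2 at 1.03, while DNA topoisomerase 2-alpha, centromere protein F and anillin stood at 0.762, 0.717 and 0.677. At the mix of pigment, high-ARS and other cells in the 48 hpf library, with gut and skeletogenic cells left out, the ratio of the sum was 0.713.

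Among the classes compared, the difference between the stages was widest in pigment cells. The sum in pigment cells at 72 hpf was 0.458 (0.411 to 0.510) of that at 48 hpf. Here 4 of 5 members were lower, where 19.7% of all genes tested were: RacGAP1 at 0.262 (0.165 to 0.403), SMC2 at 0.357 (0.234 to 0.533), centromere protein C at 0.437 (0.334 to 0.567) and SMC1A at 0.460 (0.396 to 0.533). NUSAP1-A, at 0.761 (0.566 to 1.02), had an interval that held 1. The median over all genes tested was 1.14. Of the list of 7, condensin-2 subunit H2 and SMC4 were lower at 0.374 and 0.638, and KRP170 was higher at 1.79, where 28.4% of all genes tested were. NUSAP1-A thus had the highest ratio of the members in these cells and RacGAP1 the lowest, and the difference between members was not tested.

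Several values moved with the pigment cells between the stages. Their median depth was 1704 UMIs at 48 hpf and 1073 UMIs at 72 hpf, the level of pks1 was 15496 CPM and 4211 CPM, and the share of cells with at least 2 UMIs of a list of mitotic genes, described below, was 19.5% and 9.5%. The part of these in the members' ratio was not tested. Among pigment cells with no UMI of either division list the ratio of the sum was 0.725 (0.590 to 0.892), and among those with at least 1 it was 0.483 (0.423 to 0.551). Under looser class thresholds (2 UMIs and 0.1%) it was 0.522.

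Other cells followed the pattern of all cells, with a ratio of the sum of 0.746 (0.718 to 0.774). NUSAP1-A at 0.536 (0.487 to 0.589) was the 1 member to reach the fold, where 19.9% of all genes tested were lower, and SMC2 stood at 0.993 (0.876 to 1.13). In high-ARS cells the sum was at 0.744 (0.701 to 0.790), and NUSAP1-A at 0.657 and RacGAP1 at 0.612 were lower, where 26.0% of all genes tested were. SMC2, unlike in pigment cells, was at 0.820 (0.648 to 1.04) there.

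Between the gcm MO and control MO libraries, the sum over all cells was at 1.08 (1.02 to 1.14), and the members did not move alike. SMC2 was higher at 1.89 (1.51 to 2.34), the 1 member past the fold, where 22.0% of all genes tested were higher. Centromere protein C stood at 1.24 (1.08 to 1.42) and SMC1A at 1.20 (1.11 to 1.30). NUSAP1-A at 0.781 (0.676 to 0.898) and RacGAP1 at 0.682 (0.562 to 0.822) were on the low side. These last values depend on the processing. Without the upper limit on genes per cell NUSAP1-A stood at 1.15. With each cell thinned to 500 UMIs, which left out no cell, RacGAP1 stood at 1.20 (0.762 to 1.82). The upper limit removed 48 of the 643 deposited cells with the gcm MO and 10 of 3402 with the control MO. The median of the members (1.20) lay near that of all genes tested (1.13). Of the list of 7, anillin was higher at 1.68 (1.32 to 2.13), and TPX2, at 0.752, was lowest by value.

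Within classes SMC2 was higher in gut cells at 2.46 (1.55 to 3.82) and in other cells at 1.98 (1.48 to 2.63), where 15.9% and 20.4% of all genes tested were higher. In gut cells SMC1A was also higher, at 1.51 (1.27 to 1.79), and the sum was at 1.35 (1.19 to 1.52). In other cells the sum was at 1.10 (1.02 to 1.18). High-ARS cells went the other way, with the sum at 0.830 (0.715 to 0.960). NUSAP1-A was lower there at 0.545 (0.372 to 0.776) and RacGAP1 at 0.557 (0.309 to 0.940), where 10.6% of all genes tested were lower, while SMC2 stood at 1.13 (0.582 to 2.07). In the same cells TPX2, SMC4, DNA topoisomerase 2-alpha and KRP170 were lower at 0.460, 0.557, 0.588 and 0.643, and anillin was higher at 1.81, where 22.1% of all genes tested were.

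Pigment cells made up 5.96% of the control MO library and 0.928% of the gcm MO library. The class was called by pks1, sult1c2 and fmo5-1, which the study names as genes activated by gcm. The gcm MO embryos were also selected for a phenotype without pigmentation. These shares therefore cannot tell absent pigment cells from cells without marker UMIs, which would count as other. The 5 pigment cells with the gcm MO held 9 member UMIs, too few for a comparison. At the mix of gut, high-ARS and other cells in the control MO library the ratio of the sum was 1.10, close to the 1.08 over all cells. Pigment and skeletogenic cells were left out of that mix. High-ARS cells were deeper with the gcm MO than with the control MO, at medians of 4470 and 2593 UMIs, and the part of this in the ratios was not tested.

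**Figure D3:**
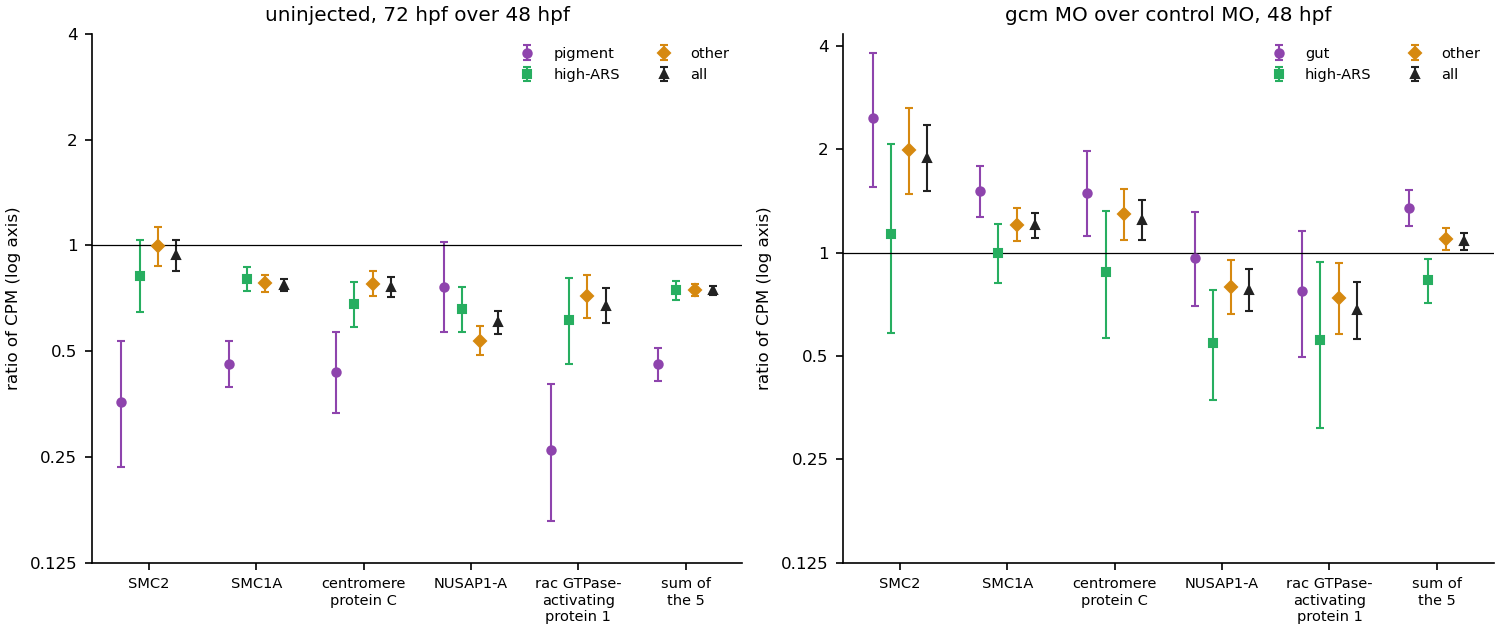
Ratio of each member between libraries (log axis), 72 over 48 hpf and gcm MO over control MO, by cell class with exact 95% intervals. In pigment cells RacGAP1 is at 0.262 and NUSAP1-A at 0.761 of the 48 hpf level, and SMC2 is at 2.46 in gut cells of the gcm MO library.

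The control MO library and the uninjected 48 hpf library are of the same age and differ in injection, dissociation and lane, which cannot be told apart. Their sums over all cells were alike at a ratio of 1.03 (0.995 to 1.06), but single members were not. RacGAP1 was at 2.00 (1.82 to 2.20), where 21.3% of all genes tested were higher, and SMC2 at 0.634 (0.555 to 0.723), where 20.3% were lower. The ratio of RacGAP1 was similar within gut (1.93), high-ARS (1.91) and other cells (1.86), and stood at 1.27 (0.918 to 1.76) in pigment cells. In pigment cells the other 4 members were lower, where 19.8% of all genes tested were: SMC2 at 0.302, SMC1A at 0.478, centromere protein C at 0.491 and NUSAP1-A at 0.602. The ratios of gcm MO over control MO and of control MO over uninjected share the control MO library, in which SMC2 was lowest of the 4 libraries at 33.7 CPM and RacGAP1 highest at 101 CPM.

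To see with which phase of division each member went, cells were sorted by UMIs, after thinning to 500 per cell, of 2 lists of other genes. The mitotic list of 7 held centromere protein F, TPX2, cdk1, cyclin B, anillin, KRP170 and cyclin-dependent kinase inhibitor 3, and the replication list of 6 held DNA polymerase alpha, DNA ligase 1, CAF-1 subunit A, PCNA-associated factor, PCNA-interacting partner and E2F8. The lists hold no member, although they come from the same list of the study, and 4 mitotic genes are also among the 7 genes above. Members were counted at full depth. Cells with more division UMIs differ in class as well, and ratios within other cells are given beside those over all cells.

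NUSAP1-A had the highest ratio of the members with the mitotic list over all cells of each library. At 48 hpf it stood at 39.3 CPM in cells with no mitotic UMI, 186 CPM with 1 and 411 CPM with at least 2, a ratio of the last to the first of 10.5 (9.32 to 11.7). In the 72 hpf library the ratio was 9.69 (8.45 to 11.1), and in control MO and gcm MO embryos it was 15.1 (13.1 to 17.6) and 21.6 (14.3 to 33.6). The size of this ratio depends on the thinning depth, and at 1000 UMIs per cell it was 33.8 (26.9 to 43.2) with the control MO and had an interval of 25.8 to 111 with the gcm MO. Within other cells it was 5.56, 5.56, 11.7 and 15.1, and within pigment cells 14.1, 12.2 and 15.6 in the 3 libraries with enough of them. With the replication list the same ratio of NUSAP1-A was 1.41, 1.67, 1.91 and 2.55, and within other cells at 48 and 72 hpf it held 1, at 0.881 (0.738 to 1.05) and 0.970 (0.780 to 1.20).

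SMC1A showed the opposite order. Its ratio with the mitotic list was 1.71 (1.61 to 1.83), 1.23 (1.11 to 1.37), 1.60 (1.48 to 1.74) and 1.60 (1.33 to 1.92), and with the replication list 2.67 (2.49 to 2.85), 2.75 (2.54 to 2.98), 2.12 (1.91 to 2.34) and 2.64 (2.18 to 3.18). In other cells at 72 hpf it was lower in cells with at least 2 mitotic UMIs, at 0.786 (0.690 to 0.892). Cells without mitotic UMIs still held 285 CPM of SMC1A at 48 hpf.

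SMC2, centromere protein C and RacGAP1 rose with both lists. With the mitotic list SMC2 was at 3.55, 3.88, 5.91 and 4.69, centromere protein C at 4.06, 3.81, 4.41 and 4.07, and RacGAP1 at 3.57, 4.84, 5.69 and 3.50. With the replication list SMC2 was at 2.98, 3.13, 2.66 and 3.70, centromere protein C at 3.24, 3.33, 3.60 and 3.62, and RacGAP1 at 3.32, 2.73, 3.16 and 2.78. At 1000 UMIs per cell the gcm MO library gave 7.51 for centromere protein C and 6.05 for RacGAP1 with the mitotic list, and 4.70 for RacGAP1 with the replication list. RacGAP1 in pigment cells at 72 hpf ran from 8.06 CPM with no mitotic UMI to 185 CPM with at least 2, a ratio of 23.0 with a wide interval (8.36 to 78.3).

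Cells with UMIs of only 1 list were compared directly. In 1125 cells with mitotic UMIs alone and 719 with replication UMIs alone at 48 hpf, NUSAP1-A stood at 322 and 84.7 CPM, a ratio of 3.81 (3.24 to 4.49), and SMC1A at 384 and 545 CPM, a ratio of 0.705 (0.650 to 0.765). The ratio of NUSAP1-A was 2.83 (2.36 to 3.42), 4.81 (3.86 to 6.05) and 6.95 (3.74 to 14.3) in the other libraries (at 1000 UMIs per cell the last 2 were 10.8 and 15.4), and that of SMC1A 0.640 (0.580 to 0.706), 0.795 (0.706 to 0.897) and 0.655 (0.510 to 0.841). Over all cells of each of the 4 libraries, NUSAP1-A was therefore on the mitotic side and SMC1A on the replication side. These include both libraries that the study did not use for its list. Within other cells NUSAP1-A stood at 3.66, 2.57, 5.02 and 8.77. SMC1A stood there at 0.673, 0.602, 0.884 and 0.636, and its control MO interval held 1 (0.758 to 1.03). In gut cells of the gcm MO library SMC1A was above 1 by value, at 1.55 (0.688 to 3.93). Over all cells centromere protein C lay closer to 1, at 1.17 (1.04 to 1.32), 1.06 (0.923 to 1.21), 1.24 (1.03 to 1.49) and 0.993 (0.689 to 1.44). The last was 1.73 (1.12 to 2.72) at 1000 UMIs per cell. SMC2 (1.12, 1.04, 1.87 and 1.26) had an interval above 1 with the control MO (1.28 to 2.78), and RacGAP1 (0.984, 1.40, 1.72 and 0.952) at 72 hpf (1.09 to 1.82) and with the control MO (1.40 to 2.12).

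**Figure D4:**
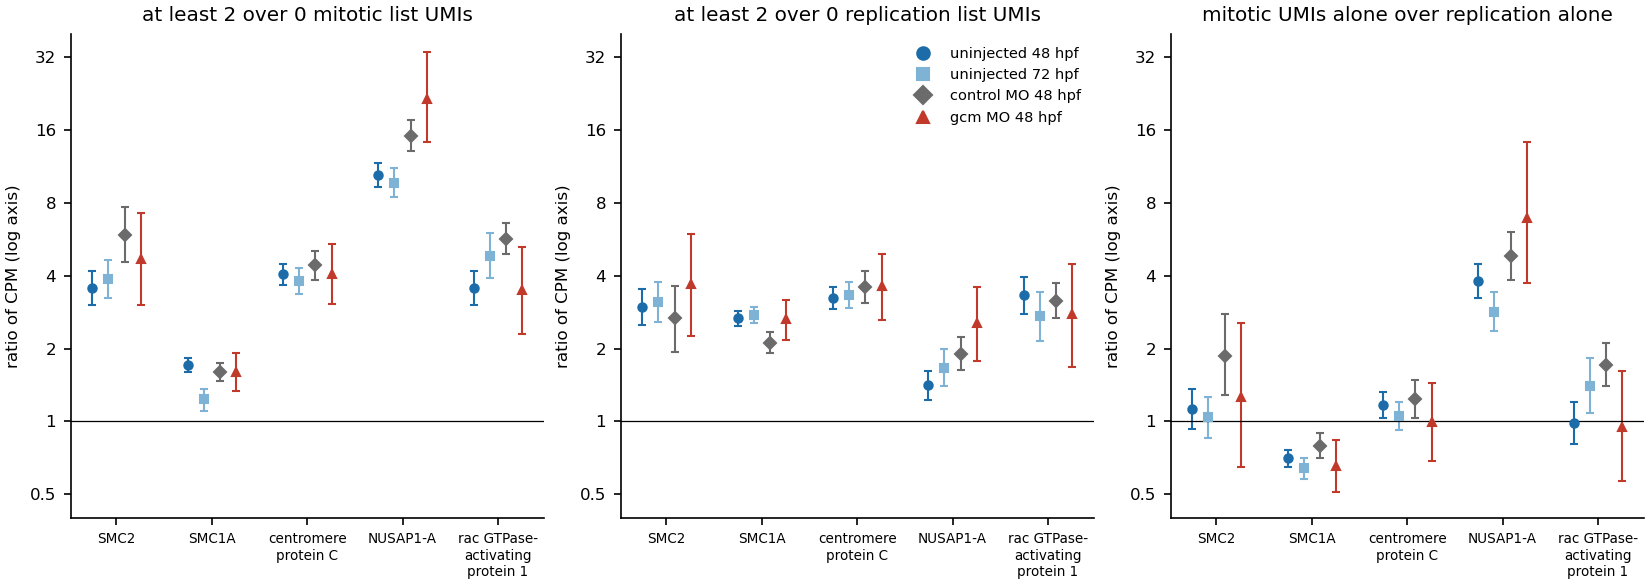
Ratio of each member's level between cells with at least 2 and with no UMI of the mitotic (left) and of the replication list (middle), and between cells with UMIs of only the mitotic and only the replication list (right), on log axes over all cells of each library, with exact 95% intervals. At 500 UMIs per cell NUSAP1-A reaches 9.69 to 21.6 with the mitotic list and 1.41 to 2.55 with the replication list, and SMC1A is at 1.23 to 1.71 and 2.12 to 2.75.

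Among cells in the same bin of division UMIs (both lists together), high-ARS cells were low in the sum of the members but not in every member. The bins match neither the exact number of UMIs nor the list that gave them. Without a UMI of either list, the sum in high-ARS cells was 0.370, 0.349, 0.392 and 0.328 of that in other cells. With at least 2 it was 0.748, 0.856 and 0.868 in the first 3 libraries, and with at least 1 in the gcm MO library it was 0.495. With at least 2, SMC1A (0.639, 0.788 and 0.647) and centromere protein C (0.735, 0.727 and 0.747) had intervals below 1 in the first 3 libraries, and RacGAP1 in both uninjected ones. The intervals of SMC2 (0.797, 0.786 and 0.965) held 1. NUSAP1-A was not low there, at 0.954 (0.837 to 1.09) at 48 hpf, 1.37 (1.15 to 1.64) at 72 hpf and 1.21 (1.03 to 1.41) with the control MO. Pigment cells at 48 hpf with at least 2 division UMIs were set against other cells that also had at least 2. RacGAP1 stood at 2.28, SMC2 at 2.04 and SMC1A at 1.78 times the level of these other cells, NUSAP1-A at 0.898 and the sum at 1.54. Pigment cells with no division UMI were on the other side, with the sum at 0.854 (0.729 to 0.997) and SMC2 at 0.411 (0.146 to 0.939). The other libraries differed from this. At 72 hpf with at least 2 the sum was at 1.14 (0.986 to 1.31), SMC2 at 0.970, SMC1A at 0.999, RacGAP1 at 1.45 (0.876 to 2.27) and NUSAP1-A at 1.71 (1.26 to 2.27). In the control MO library the sum was at 0.993 (0.843 to 1.16), SMC2 at 0.907, SMC1A at 1.15, RacGAP1 at 1.64 (1.17 to 2.25) and NUSAP1-A at 0.451 (0.278 to 0.695).

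Few cells showed several members at once at 500 UMIs per cell. No member UMI was found in 72.2%, 77.6%, 73.7% and 69.8% of cells, 2 or more members in 4.70%, 3.21%, 4.60% and 5.75%, and all 5 in 0 cells of any library. For the 10 pairs of members, the number of cells with both was set against the product of their shares, and the median of that ratio was 1.68 (range 1.30 to 2.67) and 1.80 (1.37 to 2.51) in the uninjected libraries of 48 and 72 hpf, 1.87 (1.34 to 3.26) in control MO embryos and 1.36 (0.413 to 2.87) in gcm MO embryos. Within other cells alone the medians were 1.22, 1.32, 1.51 and 1.17. Members were thus found in the same cells somewhat more often than their shares give, less so within a class, and at these counts per pair (6 to 73 cells at 48 hpf) no pair was ordered above another.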

How the data were processed

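The authors dissociated embryos, made droplet 3′ libraries and ran Cell Ranger, with a reference built from an assembly of the S. purpuratus genome, and Seurat (3.1.4 per the submitters' processing notes). The deposited values are raw UMI counts of each gene in each cell that Cell Ranger called, not normalized and not filtered on genes per cell. The authors' methods and the matrix headers name different Cell Ranger versions (the headers 3.1.0).

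The study's limits of 400 to 2500 genes per cell were applied. Library totals of kept cells were 15379620, 14602157, 9314829 and 1822536 UMIs in the order uninjected 48 hpf, uninjected 72 hpf, control MO and gcm MO, so values of the last are the least precise. Counts were summed per library and class and divided by all UMIs of the same cells. Intervals (95%) are exact Poisson for levels, Clopper-Pearson for shares and, for ratios, exact binomial given the total count. Cells are not replicates, so no test was run. A ratio was called at 1.5-fold with the interval on that side of 1, and genes needed a total of 50 UMIs or more in the groups compared. Shares and division lists used cells thinned to 500 UMIs, which left out 0 cells. The replication list was used without 1 gene that is not reported here, left out after the results were seen. The ratio calculation was tested on simulated counts. Software was scanpy 1.11.5, scipy 1.17.1, numpy 2.4.6, pandas 2.3.3 and matplotlib 3.10.9 under Python 3.11.15.

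The members, the gene lists and the class markers were chosen with earlier results of these data known. All 5 members are named in every comparison. Of the 7 other segregation genes, those at the ends of the range are named, and the 3 genes most like the members were ranked by Pearson correlation of log2(CPM + 10). Alternatives were other limits on genes per cell, other class thresholds, removal of called doublets, means of single-cell CPM, thinning to 500 or 1000 UMIs, and a denominator without the 50 most abundant genes. Doublets were kept in the reported values. Scrublet at an expected rate of 5% called 2 of 5170 cells at 48 hpf and 0 at 72 hpf, so it did not work there, and 36 and 12 cells in the MO libraries. No genome of the build used was at hand, so sequences, promoters and coordinates were not analysed here. The columns of the files all belong to these 4 libraries.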

Additional observations from a re-analysis of the deposited data

Results flagged for a closer look

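Pigment cells stood on opposite sides of other cells at the 2 stages for several members. SMC2 was at 1.32 of other cells at 48 hpf and 0.476 at 72 hpf, RacGAP1 at 1.53 and 0.559, and SMC1A at 1.39 and 0.821, with both intervals of each gene on their own side of 1. With the control MO at 48 hpf, SMC1A was at 0.727, on the side of the 72 hpf library and not of the uninjected library of its own age. The sum of the members followed, at 1.17 at 48 hpf, 0.719 at 72 hpf and 0.665 with the control MO. These differences between libraries were not tested, because each condition has 1 library, and stage, preparation, injection and lane cannot be told apart.

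The ratio of the sum between the gcm MO and control MO libraries was above 1 in gut cells (1.35) and other cells (1.10) and below 1 in high-ARS cells (0.830). This difference between classes was not tested either.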

How the results depend on the processing

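Of 79 values of the main comparisons under an alternative, 53 lay within the interval of the main value and 25 outside it. The remaining 1 crossed 1 from a main interval that did not hold 1. Of 375 values of single genes the numbers were 298, 71 and 6. For pairs of members found together, the range over the 10 pairs stood in for that interval. Removal of called doublets gave 7 of the 53, and lists without LOC580574 and LOC752321 gave 8. These settings touched few cells or list UMIs. For the sum of the members, 72 over 48 hpf in all cells was 0.773 without an upper limit on genes, 0.776 with all deposited cells and 0.776 without the 50 most abundant genes in the denominator. In pigment cells it was 0.522 with class thresholds of 2 UMIs and 0.1%, and in other cells 0.834 there and 0.664 with 5 UMIs and 0.5%. For gcm MO over control MO in all cells it was 1.27 without an upper limit, 1.27 with all deposited cells, 1.18 as a mean of single-cell CPM and 1.20 after thinning to 500 UMIs. In other cells it was 1.21 and 1.22 with the first 2 of these, and crossed 1 to 0.937 with 5 UMIs and 0.5%. At 48 hpf, pigment over other cells was 1.30 with 5 UMIs and 0.5% and 1.04 without the 50 genes, and high-ARS over other cells was 0.400 without an upper limit, 0.402 with all deposited cells, 0.446 with 2 UMIs and 0.1% and 0.423 without the 50 genes. Thinning to 1000 UMIs, which left out 959, 2270, 134 and 140 cells, gave ratios with the mitotic list of 3.69 and 3.37 in the uninjected libraries of 48 and 72 hpf, 4.19 in control MO and 4.01 in gcm MO embryos, and with the replication list of 2.94, 3.18 and 2.60 in the first 3. Leaving out the inhibitor LOC580574 and the PCNA-interacting partner LOC752321 from the lists, chosen after seeing the data, kept all 8 ratios of the sum within their intervals. Over groups of library and class, these genes ran against the mean profile of the members, at r = -0.366 and r = -0.811.

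The 6 values of single genes that crossed 1 from a main interval not holding 1 were in gcm MO over control MO. Values whose main interval held 1 were not counted, although some ran across 1. Examples were centromere protein C in pigment over other cells at 48 hpf (0.833 to 1.19 over the alternatives) and SMC2 in other cells, 72 over 48 hpf (0.846 to 1.16). NUSAP1-A stood at 1.15 in all and 1.06 in other cells without an upper limit on genes, and at 1.16 and 1.07 with all deposited cells. RacGAP1 stood at 1.20 (0.762 to 1.82) in all and 1.03 (0.565 to 1.78) in other cells after thinning to 500 UMIs. Thinning to 500 UMIs also moved SMC2 in pigment cells, 72 over 48 hpf, to 0.230 (0.104 to 0.471) and RacGAP1 in high-ARS over other cells at 48 hpf to 0.172 (0.0900 to 0.305). The cause of these changes was not tested. No paired analysis was possible because each condition has 1 library, and for the same reason no replicate could be left out. Class thresholds have no bearing on values over all cells. Depth limits the values of classes with few cells, such as the 57 skeletogenic cells of control MO embryos, and those of gcm MO embryos, whose library held the fewest UMIs of the 4.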

Other observations

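Over the 13 groups of library and class with at least 100 cells, 3 of 6517 genes were ranked as most like the mean profile of the members, by Pearson correlation of log2(CPM + 10), as a description of groups that share libraries. They were LOC583705 (r = 0.984), CAF-1 subunit A, LOC584359, a chromatin assembly factor for newly made DNA (0.981), and LOC575281 (0.974). LOC583705 ran from 27.6 CPM in high-ARS cells to 169 CPM in other cells, both of the gcm MO library. CAF-1 subunit A is in the replication list. SMC4 was at rank 17 (0.944). Against the mean of the other 4 members, SMC1A had r = 0.975, centromere protein C 0.967, SMC2 0.858, NUSAP1-A 0.849 and RacGAP1 0.781.

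Pigment cells changed their share in the 2 division lists unequally. Cells with at least 2 replication UMIs at 500 UMIs per cell were 21.3% of pigment cells at 48 hpf, 4.46% at 72 hpf and 14.1% with the control MO, and those with at least 2 mitotic UMIs were 19.5%, 9.5% and 8.08%.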
